A study of Mus musculus with 14 samples.

Results

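The genes described here are the 3 Aurora kinase genes Aurka, Aurkb and Aurkc and the 3 genes for the other subunits of the chromosomal passenger complex, Incenp, Birc5 (survivin) and Cdca8 (borealin). These 6 were taken by gene symbol from the 20626 genes of the expression tables, and each was found once. Their RNA was measured in 8 libraries of mouse male germ cells, and trimethylation of histone H3 lysine 36 (H3K36me3) over them was read from 4 peak lists. The study asked what loss of Setd2, the gene for the enzyme that places H3K36me3 along transcribed genes, does to this mark and to RNA in germ cells.

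The cells came from testes of adult C57BL/6J mice and were sorted by the fluorescence of Hoechst and propidium iodide DNA dyes into pachytene/diplotene spermatocytes (PD), cells in the long prophase of meiosis, and round spermatids (RS), which are haploid and follow the meiotic divisions. Both cell types were taken from WT (wild-type) and Setd2KO animals, as labelled, which gave 4 groups with 2 libraries of polyadenylated RNA and 1 H3K36me3 peak list each. No agent other than the gene loss is named for any group. The part of Setd2 that was removed, any Cre line used for it and the number of animals behind a library are not given in the sources used here. The p-values below thus rest on the spread within pairs of libraries, and that spread may be technical.

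Aurora kinases are serine/threonine kinases of cell division. Aurora A works at centrosomes and spindle poles, whereas Aurora B is the catalytic subunit of the chromosomal passenger complex, in which INCENP is the scaffold and survivin and borealin hold the complex on centromeric chromatin. Aurora C is a close relative of Aurora B that is made mainly in germ cells and can take its place in the same complex during meiosis, and loss of AURKC in men gives large-headed sperm with extra flagella. Round spermatids have finished both meiotic divisions, so the 6 genes are followed here across the last divisions of the germ line.

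Sequencing depth, worked back from the FPKM values, ran from 50.841 to 84.93 megareads per library. At that depth, and with the smallest transcript length that fitted, the 6 genes had from 199 reads (Aurkb, RS WT library 2) to 10064 reads (Aurka, RS Setd2KO library 2). Setd2 itself was at 21.2 and 19.1 FPKM (WT) against 21.03 and 21.4 (Setd2KO) in PD, and 5.24 and 5.58 (WT) against 12.1 and 8.67 (Setd2KO) in RS. Its RNA was thus not lower in the libraries labelled Setd2KO, and since the removed part is unknown this gene-level value checks no label. The peak lists did differ by label, with 44358 peaks in PD WT against 1152 in PD Setd2KO and 34499 in RS WT against 3692 in RS Setd2KO. Of 14 round spermatid markers 14 were higher in RS than in PD in WT, with summed levels of 5757 and 5533 FPKM in RS WT against 245 and 256 in PD WT. In RS Setd2KO the same sum was lower, at 2303 and 2569 FPKM. The 10 spermatocyte markers separated the cell types less: 6 were lower in RS WT and 1 higher, with sums of 636 and 687 FPKM against 1032 and 1174 in PD WT. Over all genes tested as described below, 46.7% were lower and 36% higher in RS WT.

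Promoters of 4 of the 6 genes were found in a RefSeq table (build GRCm38.p6), as windows of 300 bases running from 250 before to 50 after the annotated start. The kinase gene with the highest RNA level in every group (Aurka), the germ cell paralog (Aurkc) and the gene with the widest drop after meiosis (Cdca8) are shown, because they differ in the short elements known from promoters of cell cycle genes. Capitals mark the letters TTTGAA, the core of the cell cycle genes homology region, and CCAAT, or ATTGG where CCAAT lies on the other strand; both were searched on both strands. Aurka lies at chr2:172370521-172370820 (minus strand), Aurkc at chr7:6995135-6995434 (plus strand) and Cdca8 at chr4:124936868-124937167 (minus strand).
Aurka: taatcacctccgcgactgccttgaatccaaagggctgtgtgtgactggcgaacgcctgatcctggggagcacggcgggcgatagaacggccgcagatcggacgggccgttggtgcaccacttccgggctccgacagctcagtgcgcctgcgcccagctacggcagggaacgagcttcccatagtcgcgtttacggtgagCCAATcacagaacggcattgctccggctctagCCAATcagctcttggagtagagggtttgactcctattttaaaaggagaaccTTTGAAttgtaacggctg
Aurkc: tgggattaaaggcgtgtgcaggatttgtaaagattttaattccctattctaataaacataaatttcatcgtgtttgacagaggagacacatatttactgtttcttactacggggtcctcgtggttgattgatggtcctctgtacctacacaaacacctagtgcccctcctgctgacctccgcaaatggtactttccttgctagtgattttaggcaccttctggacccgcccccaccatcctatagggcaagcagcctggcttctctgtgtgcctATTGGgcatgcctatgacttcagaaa
Cdca8: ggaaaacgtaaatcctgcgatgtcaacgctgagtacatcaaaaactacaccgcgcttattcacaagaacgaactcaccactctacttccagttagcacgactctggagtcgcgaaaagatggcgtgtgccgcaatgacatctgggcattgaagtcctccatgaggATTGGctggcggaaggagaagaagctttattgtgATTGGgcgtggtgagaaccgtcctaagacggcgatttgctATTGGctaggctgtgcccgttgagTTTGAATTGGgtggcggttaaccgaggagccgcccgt
TTTGAA was present in the Aurka window (position 283) and in the Cdca8 window (position 264), counted from 1 at the 5′ end, and was not found in the Aurkc window. CCAAT or its reverse was found at positions 200 and 232 in Aurka, at 166, 200, 240 and 269 in Cdca8, and at 275 in Aurkc. The last of those in Cdca8 shares 1 base with the TTTGAA before it. Neither motif was found in the window of Birc5 at chr11:117848987-117849286 (plus strand), which was the most GC-rich of the 4 at 68.7%, against 46% in Aurkc. TATAAA was found in none of the 4 windows. Of all 32851 promoter windows of this length, 17.9% held TTTGAA, 37.4% held CCAAT and 13.6% held TATAAA on either strand. A match is a stretch of letters and not a measured binding site.

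Levels are given first, gene by gene, in FPKM (fragments per kilobase of transcript, scaled to mapped depth), which is scaled by transcript length and can be compared between genes. Aurka, the centrosomal kinase gene (mm9 chr2:172181690-172196070, minus strand), was at 62.2 and 45.5 FPKM (WT) against 60.2 and 63.6 (Setd2KO) in PD, and 28.2 and 48.1 (WT) against 90.9 and 80.4 (Setd2KO) in RS. Both RS Setd2KO libraries lay above every other library, and the RS WT pair was the most spread of the 4 pairs. Aurkb, the kinase gene of the mitotic complex (chr11:68859139-68865166, plus strand), was at 7.62 and 8.74 FPKM (WT) against 3.44 and 4.35 (Setd2KO) in PD, and 1.90 and 1.99 (WT) against 4.07 and 3.26 (Setd2KO) in RS. Its PD WT libraries were the highest and its RS WT libraries the lowest, with both Setd2KO pairs between them and overlapping each other. Aurkc, the meiotic kinase gene (chr7:6948096-6955802, plus strand), was at 13.5 and 18.9 FPKM (WT) against 8.23 and 6.59 (Setd2KO) in PD, and 8.03 and 8.02 (WT) against 6.99 and 6.17 (Setd2KO) in RS. PD WT stood above the other 3 groups, whose libraries lay between 6.17 and 8.23 FPKM.

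Incenp, the scaffold gene that carries the activating segment for Aurora B and C (chr19:9946787-9974023, minus strand), was at 9.91 and 12.8 FPKM (WT) against 6.90 and 7.25 (Setd2KO) in PD, and 11.6 and 10.7 (WT) against 13.8 and 11.9 (Setd2KO) in RS. Its lowest 2 libraries were those of PD Setd2KO, and PD WT overlapped both RS pairs, which did not overlap each other. Birc5, whose survivin protein binds phosphorylated histone H3 at centromeres (chr11:117710551-117717057, plus strand), was at 35.0 and 35.4 FPKM (WT) against 36.5 and 38.1 (Setd2KO) in PD, and 18.7 and 21.9 (WT) against 36.7 and 33.5 (Setd2KO) in RS. RS WT was the low group here, and the RS Setd2KO pair overlapped PD WT and PD Setd2KO. Cdca8, whose borealin protein joins INCENP and survivin in a helical bundle (chr4:124595709-124614161, minus strand), was at 33.4 and 26.4 FPKM (WT) against 32.7 and 35.1 (Setd2KO) in PD, and 4.40 and 5.50 (WT) against 13.1 and 11.1 (Setd2KO) in RS. The RS WT and RS Setd2KO pairs were both below every PD library and did not overlap each other.

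**Figure D1:**
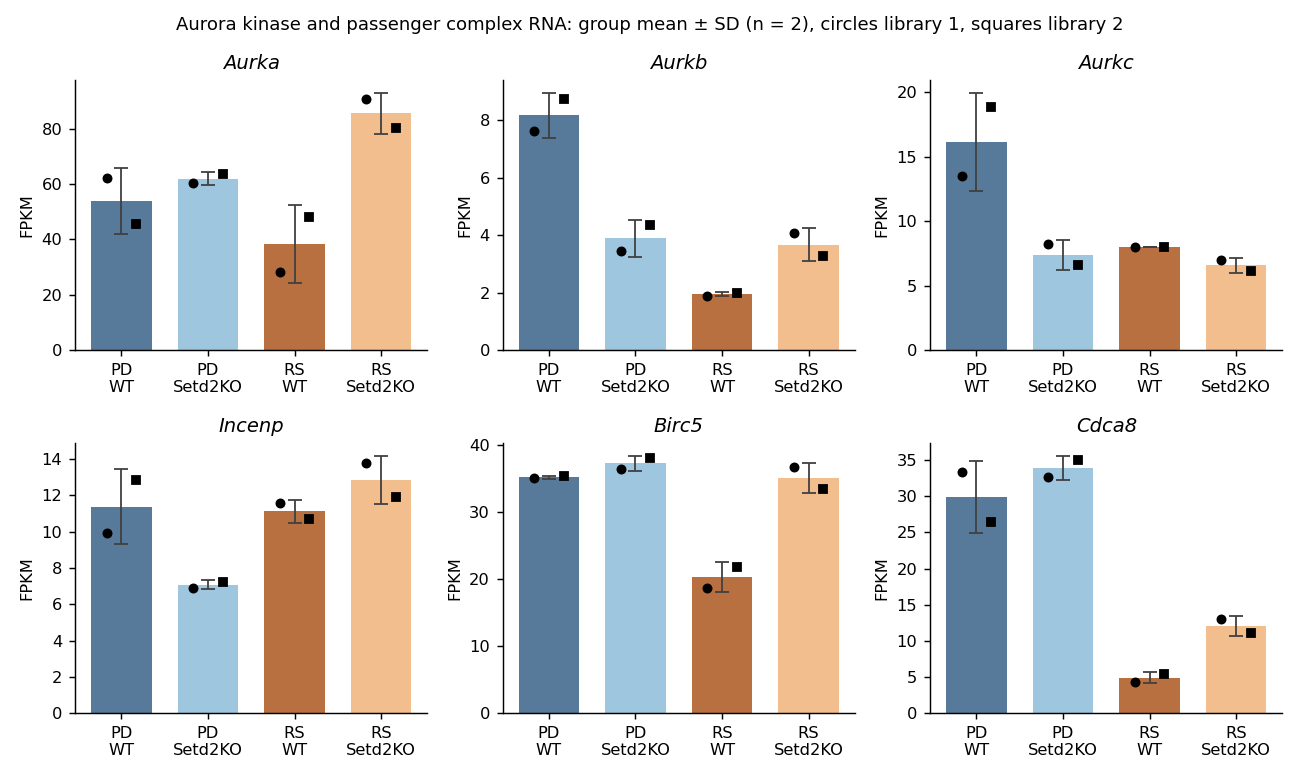
Level of each of the 6 genes in FPKM (linear axis) in the 2 libraries of each group, with the group mean as a bar and the SD as an error bar. Aurka is highest in all 4 groups, RS Setd2KO (80.4 to 90.9 FPKM) lies above all other Aurka libraries, and Cdca8 is lowest in RS WT (4.40 and 5.50 FPKM).

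In PD WT the mean levels ran in the order Aurka (53.9 ± 11.8 FPKM, SD, n = 2), Birc5 (35.2 ± 0.233), Cdca8 (29.9 ± 4.91), Aurkc (16.2 ± 3.81), Incenp (11.4 ± 2.07) and Aurkb (8.18 ± 0.789), with no overlap between the libraries of neighbours. Aurkc RNA was thus above Aurkb RNA in spermatocytes, and the same held in each of the 8 libraries. In RS WT the order was Aurka, Birc5, Incenp, Aurkc, Cdca8 and Aurkb, again with no overlap between neighbours. Cdca8 thus stood below the scaffold gene Incenp and above Aurkb alone. The Setd2KO groups kept the order of their cell type but for Cdca8 and Aurkc, which changed places in RS Setd2KO, and neighbours overlapped for Aurkc and Incenp in PD Setd2KO and for Incenp and Cdca8 in RS Setd2KO. Aurka exceeded 96.0% of all listed genes in PD WT and 92.7% in RS WT, whereas Aurkb exceeded 78.1% and 61.7%.

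In WT cells, 4 of the 6 genes were lower in RS than in PD: Cdca8, Aurkb, Aurkc and Birc5. Changes are log2 differences of FPKM + 1 from limma, with p-values adjusted over 11452 tested genes by the Benjamini-Hochberg method and called under 0.05; all 6 genes passed the filter on low values. The median of all tested genes was itself −0.21 in this comparison, so changes relative to it are added, while the p-values are those of the deposited scale. Cdca8 fell by 2.37 (SE 0.16, adjusted p = 5.75e-08, relative change −2.16) and Aurkb by 1.64 (SE 0.13, adjusted p = 3.72e-07, relative change −1.43). Aurkc fell by 0.91 (adjusted p = 0.000286, relative change −0.70) and Birc5 by 0.77 (adjusted p = 0.000239, relative change −0.56). Aurka differed by −0.52 (SE 0.23, adjusted p = 0.0564) and Incenp by −0.02 (SE 0.14, adjusted p = 0.898), neither of which passed. The value for Aurka moved with the libraries and the scaling: it was called without PD WT library 2 (−0.74, adjusted p = 0.0351) or RS WT library 2 (−0.89, adjusted p = 0.00396), after rescaling to a common sum (−0.71, adjusted p = 0.0372) and after quantile normalization (−0.81, adjusted p = 0.0186). It was −0.30 (adjusted p = 0.330) without PD WT library 1 and −0.14 (adjusted p = 0.566) without RS WT library 1. Of all tested genes 46.7% were lower and 36% higher, so 4 of 6 lower and 0 of 6 higher (also 0 at an unadjusted p under 0.05) is to be read against a background in which most genes differed. The median of the 6 changes was −0.84. In sorted but bulk samples, fewer cells of a type and less RNA per cell cannot be told apart.

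In spermatocytes, loss of Setd2 went with less RNA of the 2 kinases of the passenger complex and of its scaffold, while Aurka, Birc5 and Cdca8 did not pass the test. Aurkc fell by 1.02 (SE 0.16, adjusted p = 0.00121), from 16.2 ± 3.81 to 7.41 ± 1.16 FPKM (SD, n = 2). Aurkb fell by 0.91 (SE 0.13, adjusted p = 0.000857), from 8.18 ± 0.789 to 3.90 ± 0.640 FPKM. Incenp fell by 0.61 (SE 0.14, adjusted p = 0.00820), from 11.4 ± 2.07 to 7.07 ± 0.247 FPKM, and this call was lost without PD Setd2KO library 1 (−0.58, adjusted p = 0.0519). Because the median of all tested genes was 0.19 here, the changes relative to it were −1.21 for Aurkc, −1.10 for Aurkb and −0.80 for Incenp. Aurka differed by 0.21 (SE 0.23, adjusted p = 0.487), Birc5 by 0.08 (SE 0.14, adjusted p = 0.667) and Cdca8 by 0.18 (SE 0.16, adjusted p = 0.376). Across all tested genes 6.3% were lower and 29.8% higher in PD Setd2KO (82.54% of calls higher, but 65.35% after rescaling to a common sum and 45.73% after quantile normalization), against 3 of 6 lower and 0 of 6 higher here (0 also at an unadjusted p under 0.05), with a median of −0.26.

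Levels of some marker lists moved with genotype in the same libraries. The summed level of 10 spermatogonia markers was 7.64 and 7.73 FPKM in PD WT and 14.1 and 20.0 in PD Setd2KO, and 4 of the 5 that could be tested rose. Spermatocyte markers summed to 1032 and 1174 FPKM in PD WT and 1222 and 1273 in PD Setd2KO, where 4 of 10 rose and 1 fell. The counts of spermatocyte markers lie near the shares of all tested genes (29.8% higher, 6.3% lower), with a list median of 0.11 against 0.19. Of 14 round spermatid markers 8 rose and 2 fell, with sums of 245 and 256 FPKM against 337 and 220. The part of these cell types in the changes of Aurkb, Aurkc and Incenp was not tested.

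In round spermatids 4 of the 6 genes were higher in Setd2KO, among them Aurkb, which was lower in spermatocytes, and 0 were lower. Aurka rose by 1.19 (SE 0.23, adjusted p = 0.00196), from 38.2 ± 14.1 to 85.6 ± 7.41 FPKM (SD, n = 2). Cdca8 rose by 1.14 (SE 0.16, adjusted p = 0.000219), from 4.95 ± 0.779 to 12.1 ± 1.38 FPKM. Birc5 rose by 0.77 (SE 0.14, adjusted p = 0.00112), from 20.3 ± 2.23 to 35.1 ± 2.29 FPKM, and Aurkb by 0.66 (SE 0.13, adjusted p = 0.00270), from 1.95 ± 0.0654 to 3.67 ± 0.572 FPKM. Aurkc differed by −0.26 (95% interval −0.62 to 0.11, adjusted p = 0.230) and Incenp by 0.19 (−0.13 to 0.51, adjusted p = 0.311). The background here was 20.9% of tested genes higher and 21.8% lower, with a median of 0.02, and the median of the 6 was 0.71. None of the 6 was lower at an unadjusted p under 0.05 either.

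Spermatocyte markers were also higher in these libraries, at summed levels of 884 and 871 FPKM in RS Setd2KO against 636 and 687 in RS WT, with 5 of 10 rising and 0 falling (0 also at an unadjusted p under 0.05). The synaptonemal complex gene Sycp3 was at 19.0 and 17.6 FPKM in RS WT against 46.1 and 37.1 in RS Setd2KO, while the pachytene gene Piwil1 was at 6.33 and 7.58 against 9.08 and 6.35. Of the 14 round spermatid markers 5 fell and 0 rose. Over all tested genes 20.9% were higher and 21.8% lower in this comparison. Some marker lists of cells outside the germ line also moved. Peritubular myoid markers summed to 2.45 and 3.80 FPKM in RS WT against 16.0 and 16.4 in RS Setd2KO, with 4 of 4 tested rising. Sertoli cell markers summed to 4.72 and 7.23 against 13.9 and 11.7, with 3 of 3 tested rising. Leydig cell markers summed to 9.28 and 4.79 against 10.0 and 14.2, with 1 of 3 tested rising. Macrophage and blood markers summed to 2.86 and 5.28 against 4.03 and 3.48, with 0 of 2 tested rising and 1 falling. Markers of proliferating cells summed to 87.4 and 78.4 FPKM in RS WT against 93.6 and 92.9 in RS Setd2KO, with 1 of 9 tested rising and 3 falling. No marker of any list was at 0 in every library. The part of these cell types in the higher RNA of Aurka, Aurkb, Birc5 and Cdca8 was not tested.

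The effect of Setd2 loss differed between the cell types for each of the 6 genes, always upward in RS relative to PD. The difference of the 2 effects, tested within the same limma fit, was largest for Aurkb at 1.57 (SE 0.19, adjusted p = 0.000335), which fell in PD and rose in RS. For Cdca8 it was 0.96 (SE 0.22, adjusted p = 0.00682), for Incenp 0.80 (SE 0.20, adjusted p = 0.0113) and for Birc5 0.69 (SE 0.19, adjusted p = 0.0173). For Aurkc it was 0.76 (SE 0.23, adjusted p = 0.0250) and for Aurka 0.98 (SE 0.33, adjusted p = 0.0381). The median of all tested genes was −0.16 in this comparison, and 7.76% of them were called higher against 27.3% lower (22.14% of calls higher, but 41.08% after rescaling to a common sum and 52.87% after quantile normalization), while the median of the 6 was 0.88. Aurkb and Cdca8 were called with each library left out in turn, whereas the other 4 lost the call in some of these fits: 3 of the 6 were called without PD Setd2KO library 2 or RS WT library 1, and 2 without RS Setd2KO library 1. Aurka was not called without PD WT library 1, PD Setd2KO library 1 or 2, RS WT library 1, or RS Setd2KO library 1 or 2 (adjusted p from 0.0568 to 0.156). Aurkc was not called without PD WT library 2, PD Setd2KO library 2, RS WT library 1 or 2, or RS Setd2KO library 1 (0.0612 to 0.0953). Birc5 was not called without PD Setd2KO library 1 or 2, RS WT library 1 or RS Setd2KO library 1 (0.0563 to 0.0807), and Incenp without RS Setd2KO library 1 (0.0509). In the same contrast 2 of 10 spermatocyte markers were higher and 2 lower, 12 of 14 round spermatid markers were lower and 4 of 4 tested peritubular myoid markers were higher, and their part in the result was not tested.

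**Figure D2:**
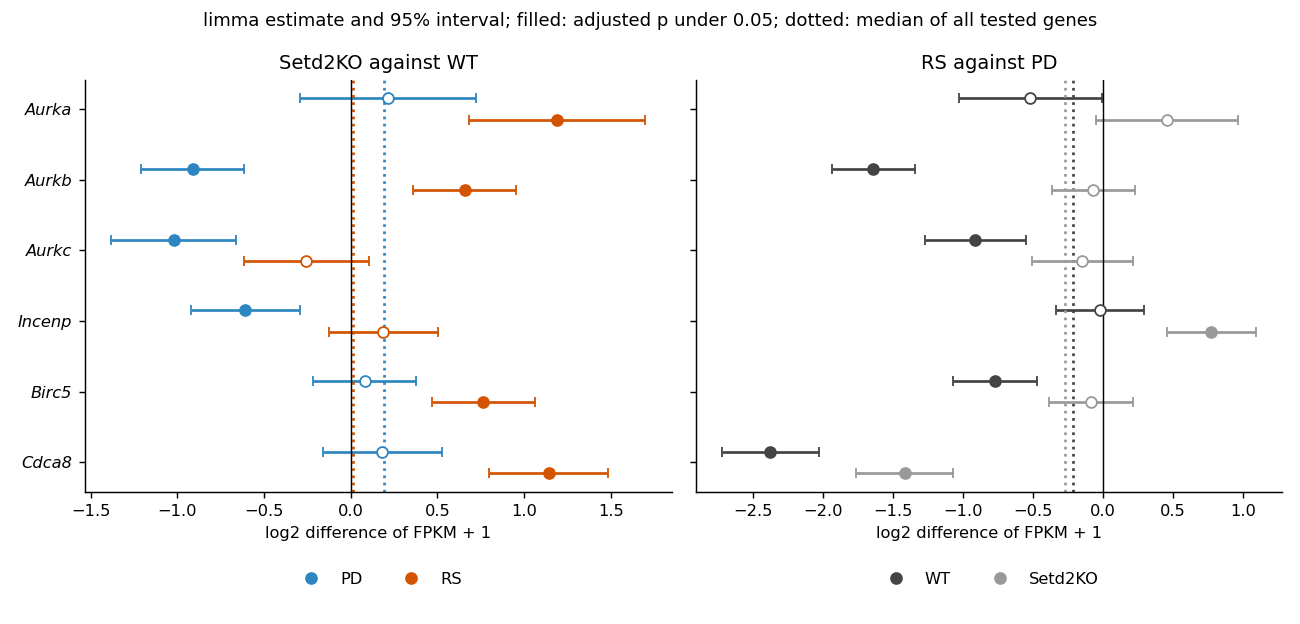
limma log2 differences of FPKM + 1 with 95% intervals for Setd2KO against WT (left, PD and RS) and for RS against PD (right, WT and Setd2KO), with filled points at adjusted p under 0.05 and dotted lines at the median of all tested genes. Aurkb lies at −0.91 in PD and 0.66 in RS, and the change of Cdca8 from PD to RS is −2.37 in WT and −1.41 in Setd2KO.

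Seen along the step from PD to RS, 3 of the 4 genes that were lower in RS in WT did not pass the test in Setd2KO cells. Within Setd2KO, Aurkb differed by −0.07 (adjusted p = 0.645), Birc5 by −0.09 (adjusted p = 0.570) and Aurkc by −0.15 (adjusted p = 0.421), where the median of all tested genes was −0.27. Cdca8 still fell by 1.41 (adjusted p = 5.05e-06, relative change −1.15). Incenp rose by 0.78 (adjusted p = 0.000361, relative change 1.04), and Aurka differed by 0.46 (adjusted p = 0.0851, relative change 0.73). The calls were thus 1 higher and 1 lower of 6, against 34.2% higher and 48.5% lower among all tested genes. Aurka also passed when the fit held the Setd2KO libraries alone (adjusted p = 0.00238) and without RS WT library 1 (adjusted p = 0.0371) or 2 (adjusted p = 0.0365). This step and the genotype comparisons share libraries, so their values are not independent of each other.

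Within the Aurora family the mix of RNAs differed between genotypes, which was not tested. Aurka made up 74.7% and 62.2% (WT) against 83.8% and 85.3% (Setd2KO) of the summed FPKM of the 3 kinase genes in PD, and 74.0% and 82.8% (WT) against 89.2% and 89.5% (Setd2KO) in RS. In both cell types its share was higher in both Setd2KO libraries than in either WT library. The Aurkc share was 16.2% and 25.8% (WT) against 11.4% and 8.84% (Setd2KO) in PD, and 21.0% and 13.8% (WT) against 6.86% and 6.87% (Setd2KO) in RS, and it did not overlap between genotypes in either cell type. A share depends on all 3 genes of the sum. In RS, Aurka rose by 1.19 (limma adjusted p = 0.00196), while Aurkc itself was not called (−0.26, adjusted p = 0.230). The ratio of Aurkb to Aurkc was 0.566 and 0.463 (WT) against 0.418 and 0.660 (Setd2KO) in PD, and 0.236 and 0.248 (WT) against 0.582 and 0.529 (Setd2KO) in RS. In spermatocytes the 2 kinases fell side by side and the ratio overlapped between genotypes, while in spermatids it did not overlap.

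**Figure D3:**
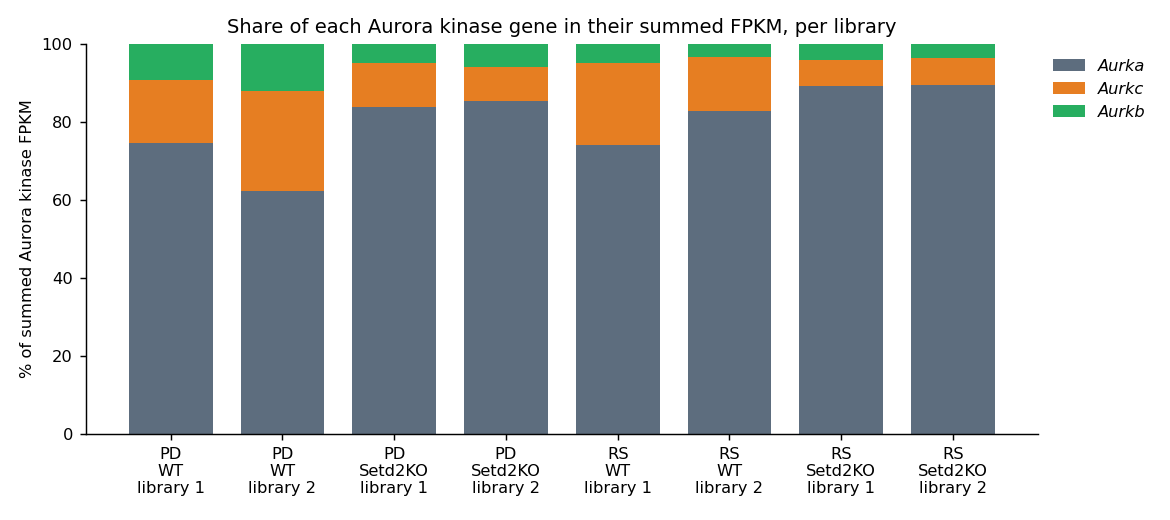
Share of Aurka, Aurkb and Aurkc in the summed FPKM of the 3 Aurora kinase genes (percent), 1 bar per library. Aurka takes 89.2% and 89.5% in the RS Setd2KO libraries and 62.2% to 74.7% in PD WT.

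Ratios to the scaffold gene describe the make-up of the complex at the RNA level. The 2 kinases of the complex together stood at 2.13 and 2.15 (WT) against 1.69 and 1.51 (Setd2KO) times the Incenp level in PD, and at 0.859 and 0.938 against 0.802 and 0.792 times in RS. Cdca8 stood at 3.36 and 2.06 (WT) against 4.74 and 4.84 (Setd2KO) times Incenp in PD, and at 0.381 and 0.515 against 0.950 and 0.936 times in RS. Birc5 stood at 3.53 and 2.75 (WT) against 5.29 and 5.25 (Setd2KO) times Incenp in PD, and at 1.62 and 2.05 against 2.67 and 2.81 times in RS. In both cell types the sum of Aurkb and Aurkc was lower relative to the scaffold in Setd2KO, with no overlap between the libraries. In RS the nearest libraries were close, at 0.859 and 0.802, and neither Aurkc nor Incenp was called there. How often ratios of other genes separate in this way was not counted. The 2 centromere-binding subunits were higher relative to the scaffold in both cell types, also without overlap. In RS the log2 change of Aurkb was 0.66, above that of Incenp (0.19), while that of Aurkc was −0.26. In PD Incenp itself fell by 0.61, while Cdca8 (0.18) and Birc5 (0.08) were not called. These ratios are RNA levels and do not measure protein, and they were not tested.

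H3K36me3 covered 5 of the 6 gene bodies in WT cells, and the exception was Aurkc. Cover in PD WT was 99.9% of the gene interval for Aurka, 100% for Aurkb, 97.0% for Incenp, 97.4% for Birc5 and 83.8% for Cdca8. In RS WT it was 100%, 100%, 98.4%, 96.2% and 83.5%, although the RNA of Aurkb, Birc5 and Cdca8 was lower there. Aurkc had 0% cover in both WT lists. Of autosomal genes at 1 FPKM or more, 88.2% of 9033 had a peak in PD WT and 75.4% of 9094 in RS WT. Their median cover was 81.5% and 71.1%, and 5 of 6 genes with a peak lies near these shares. In both Setd2KO lists all 6 genes had 0% cover, as did nearly every gene: 1.86% of 9634 autosomal genes at 1 FPKM or more had a peak in PD Setd2KO and 5.57% of 9202 in RS Setd2KO. With 1 list per group there is no replicate check, and whether the lists were scaled by the spike-in chromatin added to each sample is not given in the sources used here.

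The peaks ran along the transcribed intervals. In PD WT 1 peak of 18.27 kb with a score of 2091.5 (the authors' own value for a peak) spanned Aurka, from 8 bases after its start to beyond its end, and in RS WT the peak began 189 bases before the start. The peak over Birc5 in PD WT ran 5031 bases past the end of the gene. Incenp was covered by 2 neighbouring peaks in PD WT, with scores of 1455.14 and 1054.96, and by 1 peak of 28.517 kb in RS WT. Cdca8 had a gap, seen with the gene cut into 10 equal bins from its start. Bins 2 and 3 were covered over 12.0% and 26.4% of their length in PD WT and 12.0% and 23.5% in RS WT. The PD WT peak before the gap ran from 9600 bases before the start to 2067 bases after it. That peak spanned all of 9930104L06Rik, a gene 130 bases away at 4.35 and 4.04 FPKM in PD WT. Cover at the Cdca8 start thus cannot be told apart from cover of that gene. In PD WT the peak over Aurka also touched Fam210b, that over Birc5 Tmem235, and that over the rest of Cdca8 Epha10. Aurka also has a close neighbour, Cstf1, 432 bases from its start on the other strand, which was at 25.2 and 34.9 FPKM (WT) against 30.2 and 31.9 (Setd2KO) in PD, and 31.8 and 35.9 (WT) against 51.3 and 53.0 (Setd2KO) in RS. Like Aurka it was highest in both RS Setd2KO libraries.

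**Figure D4:**
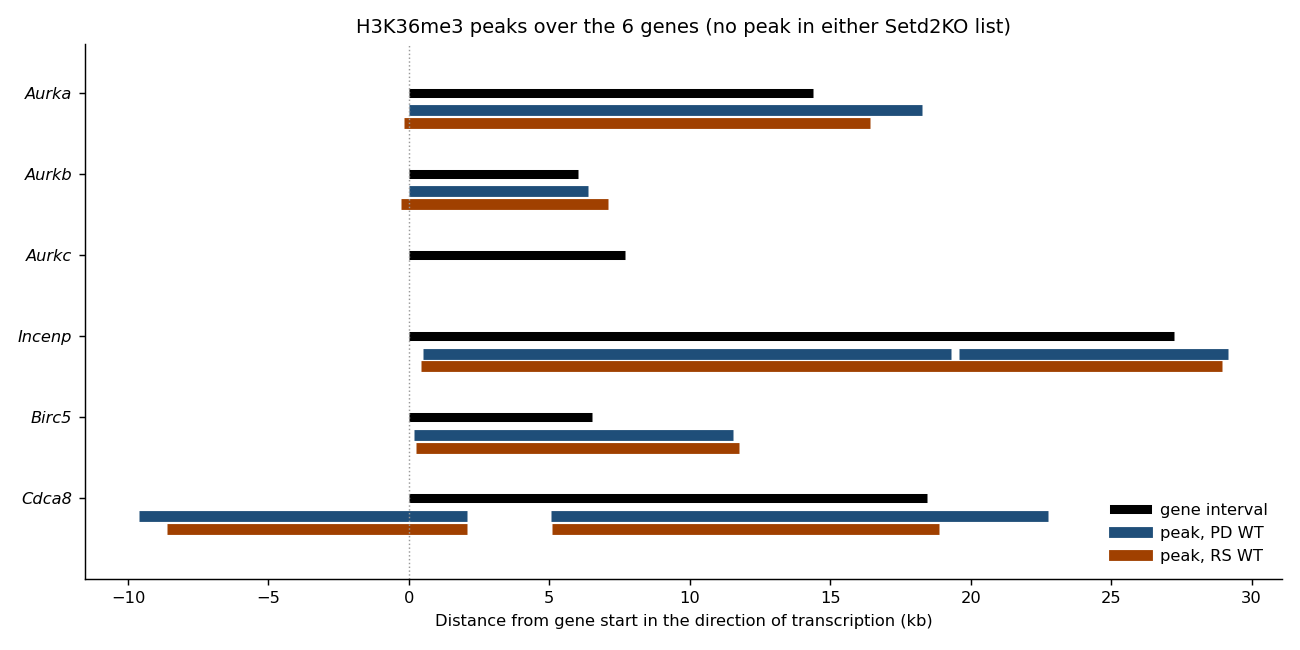
Gene interval (black) and H3K36me3 peaks of PD WT and RS WT for each gene, placed by distance from the gene start in kb along the direction of transcription. Peaks follow 5 gene bodies, Cdca8 has a gap behind its start, and Aurkc has no peak.

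The nearest PD WT peak to Aurkc lay 111820 bases beyond its end, with a score of 61.53 near the lowest listed score of 50. In RS WT a peak with a score of 84.55 lay 5710 bases before its start. Absence of a peak was uncommon for an expressed gene: of 3326 autosomal genes at 5 to 20 FPKM in PD WT, 94.9% had a peak, as did 81.0% of 2943 in RS WT. In PD Setd2KO the RNA of Aurkc, with no peak in WT, fell by 1.02, and that of Aurkb, fully under a peak in WT, fell by 0.91. The presence of a WT peak over 5 genes thus went with lower RNA for Aurkb and Incenp in PD Setd2KO, and with no call for Aurka, Birc5 and Cdca8. In RS it went with higher RNA for Aurka, Aurkb, Birc5 and Cdca8 and with no call for Incenp.

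The next list, called activators below, held 18 genes. It held genes that switch Aurora kinases on or bring the complex to centromeres, and others that act beside them in division, such as Mad2l1 and Nek2. Of the 18, 17 passed the filter on low values. In PD Setd2KO 5 of the 17 rose and 1 fell, near the shares of all tested genes (29.8% higher, 6.3% lower), with a median of 0.20 against 0.19, and after quantile normalization 4 rose and 3 fell. Mad2l1, a spindle checkpoint gene, rose by 0.73 (adjusted p = 0.00185; 4.41 ± 1.01 to 7.91 ± 0.218 FPKM), Pak1, a kinase that can activate Aurora A, by 0.63 (adjusted p = 0.000689), and Rcc2, a passenger complex partner, by 0.56 (adjusted p = 0.0159). The Rcc2 call was lost without PD WT library 1 (change 0.48) or PD Setd2KO library 1 (change 0.46). It was also lost after rescaling to a common sum (adjusted p = 0.072) and after upper quartile scaling (adjusted p = 0.0652). Plk1, the Polo kinase that works with both Aurora A and the complex, fell by 0.55 (adjusted p = 0.0273; 11.8 ± 1.06 to 7.75 ± 0.916 FPKM), a call lost without either PD WT library (adjusted p = 0.0561 and 0.106) or PD Setd2KO library 2 (adjusted p = 0.173). In RS Setd2KO 10 of the 17 rose and 0 fell (0 also at an unadjusted p under 0.05), with a median of 0.53 against 0.02, where 20.9% of all tested genes were higher and 21.8% lower. The centrosomal kinase gene Nek2 rose by 1.56 (adjusted p = 3.35e-05; 32.2 ± 2.35 to 97.5 ± 13.7 FPKM), Cdk1 by 1.31 (adjusted p = 9.03e-05), the shugoshin gene Sgol2a by 1.20 (adjusted p = 0.000112), and Tpx2, the activator of Aurora A on spindles, by 1.05 (adjusted p = 0.000119; 4.52 ± 0.116 to 10.5 ± 1.44 FPKM). With 1 library left out, 3 to 7 rose in PD and 7 to 13 in RS, the fewest in PD without PD WT library 1 or PD Setd2KO library 1. The effects differed between cell types for 8 of the 17 upward and 2 downward, where 7.76% of all tested genes were higher and 27.3% lower. The list median was 0.54 against −0.16, and 0.27 to 0.62 with 1 library left out. Fewer were called upward in some of these fits. After quantile normalization 10 were upward and 1 downward, where 2327 of all 11452 tested genes were higher and 2074 lower.

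Of 22 listed substrates and partners at the centromere and spindle midzone, 21 passed the filter. In PD Setd2KO 1 of the 21 rose and 0 fell, where 29.8% of all tested genes were higher and 6.3% lower, against 4 higher and 0 lower at an unadjusted p under 0.05, with a median of 0.09. The 1 called gene was Nuf2, of the outer kinetochore, which rose by 0.46 (adjusted p = 0.0292) and was not called without PD WT library 1 (0.0849), PD Setd2KO library 1 (0.166) or PD Setd2KO library 2 (0.0978). Scaling bore on this list: after upper quartile scaling 0 rose and 3 fell in PD. In RS Setd2KO 13 of the 21 rose and 1 fell, with a median of 0.48, beside 20.9% higher and 21.8% lower over all tested genes. Ndc80, the kinetochore gene whose protein is loosened from microtubules by Aurora B, rose by 1.65 (adjusted p = 1.79e-05; 4.21 ± 0.328 to 15.5 ± 3.39 FPKM), the kinesin gene Kif20b by 1.11 (adjusted p = 8.18e-05), Nuf2 by 0.87 (adjusted p = 0.000744) and the midbody kinase gene Cit by 0.81 (adjusted p = 0.00193). The gene that fell was Ckap5, a microtubule polymerase gene (−0.74, adjusted p = 0.00149), named here after its value was seen. In RS 8 rose without RS Setd2KO library 1. The difference of effects was upward for 7 of the 21 and downward for 1, where 7.76% of all tested genes were higher and 27.3% lower. The list median was 0.41 against −0.16, and 0.29 to 0.52 with 1 library left out. Fewer were called upward in some of these fits. After quantile normalization 11 were upward and 1 downward, where 2327 of all 11452 tested genes were higher and 2074 lower.

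Genes that remove or oppose the kinases showed no common direction. Of 14 genes tested, 3 rose and 1 fell in PD Setd2KO, and 4 rose and 3 fell in RS Setd2KO, with a median of 0.16 in each. These counts lie near the shares of all tested genes, which were 29.8% higher and 6.3% lower in PD and 20.9% and 21.8% in RS. After quantile normalization 2 rose and 3 fell in PD. In PD the phosphatase subunit genes Ppp2ca (0.59, adjusted p = 0.00241), Ppp1cb (0.55, adjusted p = 0.00847) and Ppp2r1a (0.37, adjusted p = 0.0288) rose and Ube2c, the ubiquitin carrier of the anaphase-promoting complex, fell by 0.40 (adjusted p = 0.0243). In RS Ppp1cb rose by 0.52 (adjusted p = 0.00835), while Cdca2, which targets phosphatase 1 to chromatin, fell by 0.52 (adjusted p = 0.00924; 39.5 ± 2.48 to 27.1 ± 0.512 FPKM), Anapc2 by 0.52 (adjusted p = 0.0332) and Fzr1, the adaptor that marks Aurora A for destruction, by 0.51 (adjusted p = 0.0262). These calls were fragile: without RS WT library 1 or RS Setd2KO library 1, 0 of the 14 were called in RS, with adjusted p from 0.0612 to 0.195 for Ppp1cb, Cdca2, Anapc2 and Fzr1, and without PD Setd2KO library 2 the PD calls of Ppp2r1a (0.23) and Ube2c (0.116) were lost. Ube2c was also lost without PD WT library 2 (0.0603) or PD Setd2KO library 1 (0.115), Ppp2r1a without PD WT library 1 (0.0748) or 2 (0.0591), Anapc2 without RS WT library 2 (0.167) and Fzr1 without RS Setd2KO library 2 (0.0735). Scaling bore on some calls as well. Ppp2r1a in PD was lost after rescaling to a common sum (adjusted p = 0.139), upper quartile scaling (0.0986) and quantile normalization (0.408). Anapc2 in RS was lost after the same scalings (0.113, 0.0871 and 0.0669), and Ppp1cb in PD after rescaling to a common sum (0.0527). Along the WT step from PD to RS, 11 of 17 activators, 15 of 21 substrates and 5 of 14 turnover genes were lower and 5, 4 and 5 higher, where 46.7% of all tested genes were lower and 36% higher.

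**Figure D5:**
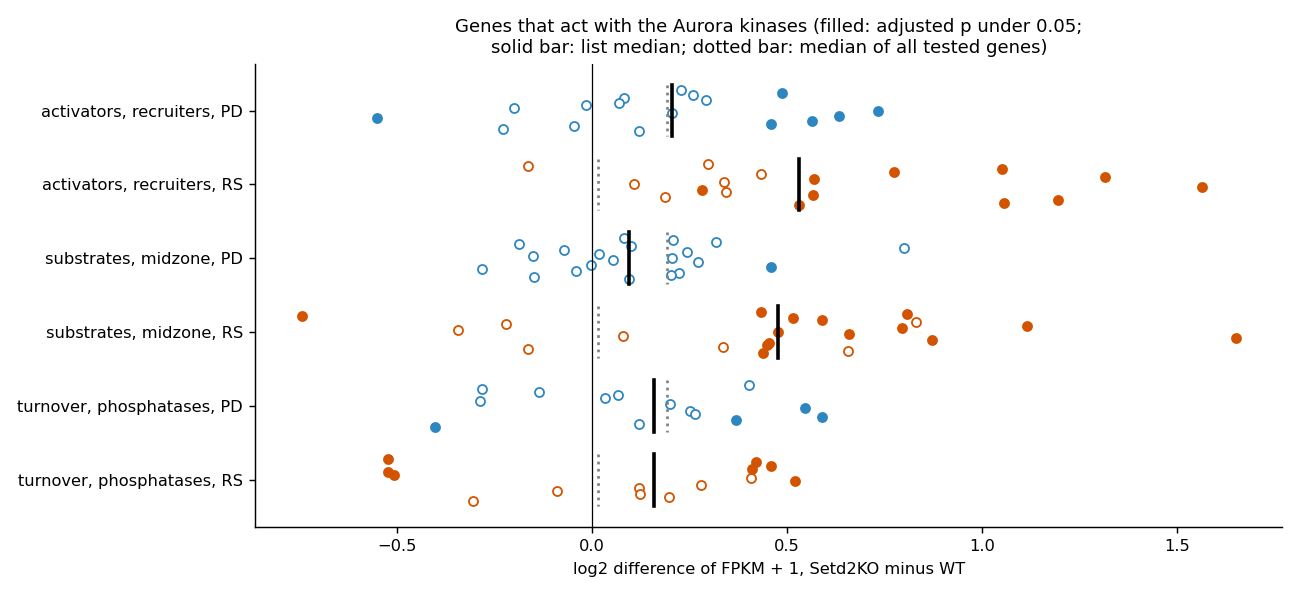
limma log2 differences of FPKM + 1 between Setd2KO and WT for the tested genes of 3 lists, in PD (blue) and RS (orange), filled at adjusted p under 0.05, with list medians as solid bars and the all-gene median as dotted bars. In RS the medians are 0.53 (activators), 0.48 (substrates) and 0.16 (turnover).

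Across the 8 libraries the genes whose profile was most like that of a member were found by the root mean square difference of centred log2 values, among 7142 candidates that reached 5 FPKM. Lin54 came nearest to Aurka (0.112), ahead of Pom121l2 (0.165) and Gm2a (0.176). Arhgef39 came nearest to Aurkb (0.105), Tapbp to Aurkc (0.154), Rnft1 to Incenp (0.0913), Ak3 to Birc5 (0.0569) and Txnip to Cdca8 (0.0709). No member was among the 3 nearest of another: the closest pair was Aurka and Birc5 (0.309), with 43 candidates nearer to Aurka and 1055 nearer to Birc5, and the widest apart were Incenp and Cdca8 (1.23). The points are the same 8 libraries throughout, so these distances are a description.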

How the data were processed

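RNA values were used as the authors deposited them, in FPKM. The submitters' processing notes name TopHat2, Cufflinks, Cuffdiff, CASAVA and build mm9, without versions. H3K36me3 peaks came as 1 deposited list per group with a score made by the authors; those notes name Bowtie, CASAVA and bedtools. Peaks were counted over a gene at 1 shared base or more. Read numbers and transcript lengths were worked back from the FPKM of each gene (tolerance 0.003). For each of the 6 genes the smallest length that gave whole reads in all 8 libraries was taken. Longer lengths, such as its multiples, were not excluded. Genes whose mean reached 1 FPKM in any group were fitted as log2(FPKM + 1) with limma 3.58.1 (R 4.3.3) with an intensity trend, 1 mean per group in a single fit, with 4 residual and 6.92 prior degrees of freedom, tested on simulated data. A fold change on this scale understates the change of low genes. Named list genes were the up to 4 called with the largest change per list and genotype comparison; likeness names were the 3 nearest genes. The members and gene lists were chosen with earlier results of these data known. Alternatives were other scalings, pseudocounts and filters, a replicate block, single comparisons and each library left out. The input libraries were not used here.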

Additional observations from a re-analysis of the deposited data

Results flagged for a closer look

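For each of the 6 genes the effect of Setd2 loss (log2 FPKM + 1) differed between round spermatids and spermatocytes by the contrast of the 2 effects in the limma fit. The differences, RS minus PD, were 1.57 for Aurkb, 0.98 for Aurka, 0.96 for Cdca8, 0.80 for Incenp, 0.76 for Aurkc and 0.69 for Birc5. Relative to the all-gene median of −0.16 they were 1.72, 1.13, 1.11, 0.95, 0.92 and 0.84. Only the calls of Aurkb and Cdca8 held in all 15 alternatives, and those of Aurka, Aurkc, Incenp and Birc5 were each lost in some. In the same contrast 12 of 14 round spermatid markers were called lower and 4 of 4 tested peritubular myoid markers higher. Over all tested genes 7.76% were called higher and 27.3% lower.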

How the results depend on the processing

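Of 474 recomputed values for single genes, 434 kept their direction and side of the threshold, 21 lost a call, 7 gained one and 12 changed sign, and 0 of the 12 was a called change. The RS Setd2KO calls (Aurka, Aurkb, Birc5, Cdca8) and the PD Setd2KO calls of Aurkb and Aurkc held in every alternative. With 1 library left out, the difference of effects (RS minus PD) stayed upward for each of the 6 genes, although calls were lost. With a replicate block, the count of genes called upward in this signed difference was 5, as Aurka passed out (0.98, adjusted p = 0.0575). Same-numbered libraries did not deviate together (correlations −0.31 to 0.07). With 2 libraries a group, this cannot exclude shared animals or batches. The replicate block changed no other count of the 6 genes. In the lists it moved the substrates from 1 to 2 higher in PD, and other list counts by at most 2. In the step to RS in Setd2KO, the count of genes higher was 1 to 2 with 1 library left out and 2 with the compared groups alone, a fit that cannot be made for the difference of effects. Signs changed for Birc5 in PD Setd2KO under rescaling to a common sum (−0.055), upper quartile scaling (−0.054) and quantile normalization (−0.0011), and in the Setd2KO step for Aurkb (0.0019 under upper quartile scaling, 0.25 under quantile normalization), Aurkc (0.13, quantile) and Birc5 (0.00040, upper quartile). With 1 library left out, the change of Aurka in PD ran from −0.0074 to 0.44, that of Incenp along the WT step from −0.19 to 0.15 and that of Aurkb along the Setd2KO step from −0.20 to 0.065. Without the filter, the differences of effects for Aurka (adjusted p = 0.0938) and Aurkc (adjusted p = 0.0570) were not called, nor was that for Aurka after quantile normalization (adjusted p = 0.0522). The cause was not tested. The all-gene median of the PD Setd2KO comparison was 0.19 as deposited, 0.10 after rescaling to a common sum and 0.00 after quantile normalization. With 2 libraries a group, small differences could not be detected. Peak cover counts were the same at scores of at least 60 and 100 and at 50% overlap.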
